A study of Mus musculus with 4 samples.

Results

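The 45 genes described here encode proteins of the synapse, 26 of the presynaptic release machinery and 19 of the postsynaptic scaffold. Their names form a list chosen with earlier results of these data known. A differentially methylated region was assigned to a gene when it shared at least 1 bp with the gene body in the mm10 RefSeq annotation. The authors' deposited table holds 101350 differentially methylated regions. Of these, 35517 lay in 1 or more of 21792 protein-coding genes and 226 in the 45 genes, 109 in presynaptic and 117 in postsynaptic members. The table comes from whole-genome bisulfite sequencing of the somatosensory cortex of mice aged 2.5 months. It compares 2 libraries labelled Nsd1Nex-cKO (here cKO) with 2 control libraries of the genotype Nsd1fl/+. NSD1 is a histone methyltransferase of lysine 36 on histone H3. The Nex (Neurod6) promoter acts in excitatory neurons of the cortex, so interneurons, glia and vessel cells in the dissected tissue would keep the gene. The control carries a floxed allele, and the labels say neither whether it also carries Cre nor whether the libraries come from separate animals.

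Transmitter release begins with vesicles that carry synapsins, SV2 proteins and a SNARE of the VAMP family. RIM, Munc13, Bassoon, Piccolo and ELKS proteins hold and prime them at the active zone, and synaptotagmins start fusion when calcium enters. On the receiving side, proteins of the Dlg, Dlgap, Shank and Homer families stack into the postsynaptic density and tie receptors to actin and to the kinase CaMKII. Bisulfite sequencing reads the share of cytosines that are methylated. In most cells methylation sits at CG sites. Neurons also gather it after birth at cytosines outside CG, such as CHH sites (H stands for A, C or T), where the enzyme DNMT3A places it, often over the bodies of genes with low expression.

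Each methylation level below is the authors' mean for a group, printed as a percent of reads methylated over the cytosines of a region. The deposited number of cytosines counts both strands, so each CpG site counts once per strand. It equalled the count on both strands in 202 of 211 CG regions and 42 of 42 CHH regions that lie wholly inside a RefSeq promoter window, and exceeded it in none. Where a single region is given as a pair of values, control comes first and cKO next. The table gives no value per library and no coverage. Depth and the spread between libraries are therefore unknown, no test between the genotypes could be made, and 95% exact binomial intervals (Clopper-Pearson) cover the counting of regions only. Regions of a gene share reads and cells and are not replicates.

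Gains of methylation in cKO made up a larger share of the regions in these synaptic genes than in protein-coding genes as a whole. Because the list was chosen with earlier results known, this contrast describes the listed genes and tests nothing. Of the 116 CHH regions in members, 92 were higher in cKO (79.3%, interval 70.8% to 86.3%), beside 41.2% of the 19061 CHH regions in all protein-coding genes. Of the 108 CG regions, 45 were higher (41.7%, interval 32.3% to 51.5%), beside 14.8% of the 16217 CG regions in all protein-coding genes. The remaining 2 regions were CHG, both lower in cKO, beside 44.4% higher in all protein-coding genes. The difference in share went with few losses more than with many gains. Per Mb of gene body, members held 1.90 CHH losses and 7.29 CHH gains, and all protein-coding genes held 10.8 and 7.55. For CG the members held 4.99 losses and 3.57 gains per Mb, and all protein-coding genes 13.3 and 2.33. In genes of at least 100 kb the densities were 10.5 CHH losses, 7.66 CHH gains, 13.4 CG losses and 1.97 CG gains per Mb.

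**Figure D1:**
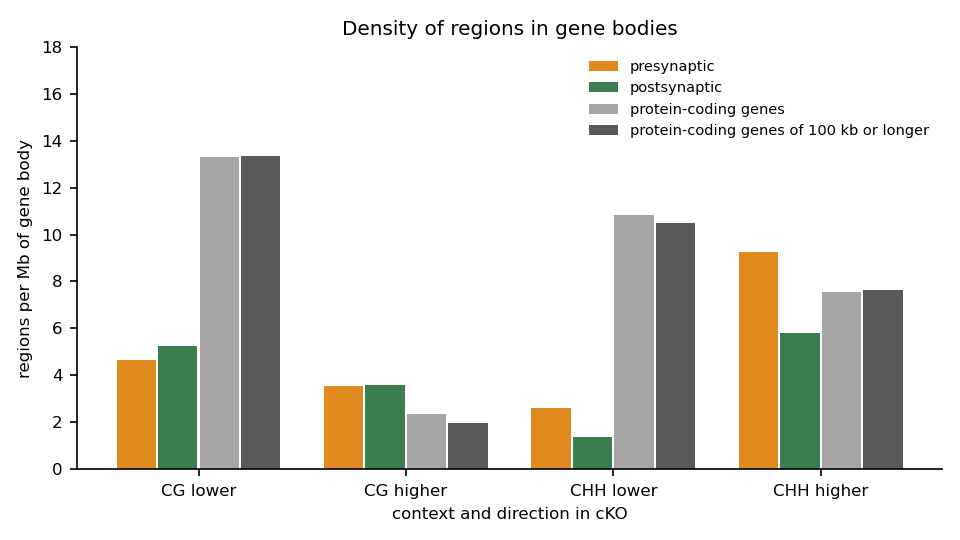
Regions per Mb of gene body (vertical axis) by context and direction, for presynaptic members, postsynaptic members, all protein-coding genes and those of 100 kb or longer. Losses were sparser in both groups of members, and CHH gains lay at 9.27 per Mb in presynaptic and 5.82 per Mb in postsynaptic members against 7.55 per Mb in all protein-coding genes.

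Counted by gene, 35 of the 45 members held at least 1 region (77.8%), beside 37.2% of protein-coding genes. Among members of at least 100 kb it was 23 of 25 (92%), beside 89.4% of protein-coding genes of at least 100 kb. Above this cut the share with any region thus lay near the background. The cut does not match lengths among the genes above it, here or in the comparisons of long genes below. Regions were higher alone in 20 members (15 presynaptic, 5 postsynaptic), lower alone in 3, and of both kinds in 12 (4 presynaptic, 8 postsynaptic). These are 57.1%, 8.57% and 34.3% of the members with a region, beside 35.5%, 49.1% and 15.4% of protein-coding genes with a region. In long genes the shares were 47.8%, 8.70% and 43.5% of members, beside 32.7%, 29.8% and 37.5%. A CHH region higher in cKO was found in 22 members (48.9%), beside 15.0% of protein-coding genes, and a CG region higher in cKO in 20 members (44.4%), beside 7.26%. A CG region lower in cKO was found in 15 members (33.3%), beside 18.6%, and a CHH region lower in cKO in 5 (11.1%), beside 15.2%. The members are long, with a median of 107 kb against 17.2 kb for protein-coding genes, and a long gene offers more room for a region. Among genes of at least 100 kb, CHH gains were found in 18 of 25 members (72%) and in 55.6% of protein-coding genes. CG gains were found in 13 of these 25 members (52%) and in 25.7% of long protein-coding genes. CG losses were found in 12 (48%) against 54.0%, and CHH losses in 5 (20%) against 42.4%.

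Counted by region, presynaptic and postsynaptic members showed like shares of gains. In CHH, 50 of 64 presynaptic regions (78.1%, interval 66.0% to 87.5%) and 42 of 52 postsynaptic regions (80.8%, interval 67.5% to 90.4%) were higher in cKO. In CG, 19 of 44 presynaptic regions (43.2%, interval 28.3% to 59.0%) and 26 of 64 postsynaptic regions (40.6%, interval 28.5% to 53.6%) were higher. The intervals overlap in both contexts, which does not show that the sides are alike, and the difference between them was not tested. Among the 15 presynaptic members with a CHH region, 12 held gains alone and 3 losses alone. Among the 10 such postsynaptic members, 8 held gains alone and 2 held both. Of the 6054 protein-coding genes with a CHH region, 45.4% held gains alone, 46.1% losses alone and 8.52% both. Over all contexts, gains alone were held by 15 of 21 presynaptic and 5 of 14 postsynaptic members with a region. A CG loss was found in 23.1% of presynaptic and 47.4% of postsynaptic members, and a CG gain in 42.3% and 47.4%. Postsynaptic members are longer (median 151 kb against 101 kb), and these differences were not tested. The shares of gains among CG regions changed with the filter and with single genes. When CG regions with a difference below the table's median were left out, 22.7% of presynaptic and 21.7% of postsynaptic CG regions were higher, beside 4.55% in all protein-coding genes. With regions below the median area statistic left out they were 52.2% and 50%, beside 16.3% in all protein-coding genes. With regions below the median number of cytosines left out they were 56.5% and 48.7%, beside 17.1% in all protein-coding genes. Without the member with the most CG regions on each side, the presynaptic share was 55.9% (without Syt2) and the postsynaptic share 60.5% (without Magi1).

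**Figure D2:**
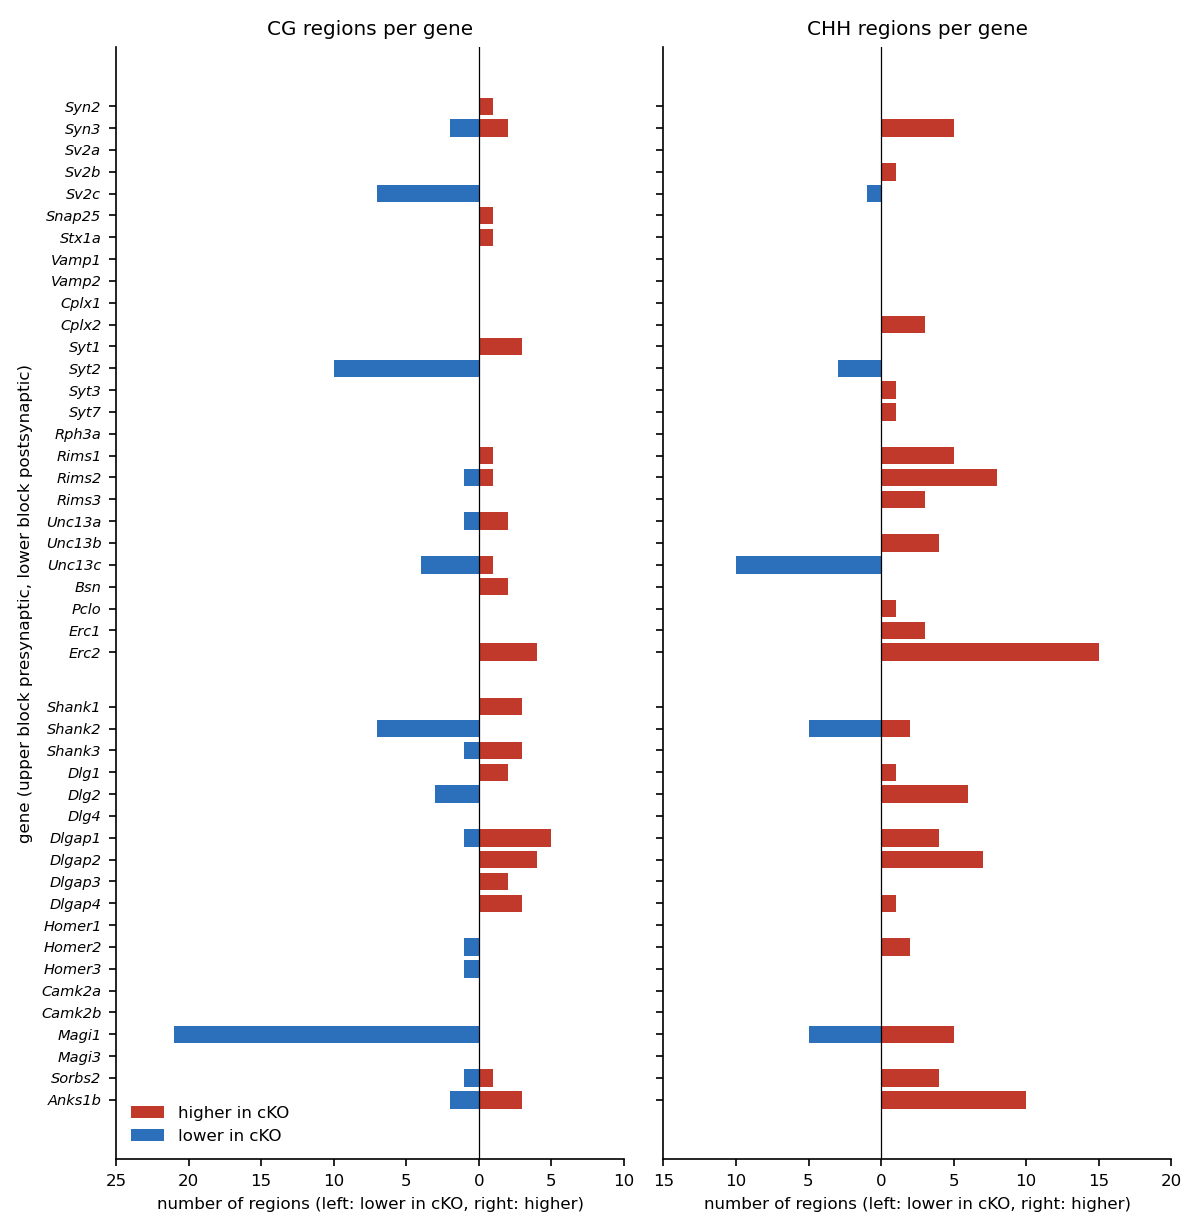
Number of CG regions (left panel) and CHH regions (right panel) in each of the 45 genes, with regions lower in cKO drawn to the left of 0 and regions higher in cKO to the right. Losses gather in Magi1, Syt2, Shank2, Sv2c and Unc13c, while CHH gains spread over 22 genes, led by Erc2 with 15.

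The levels behind these counts were of the same order on both sides of the synapse. Presynaptic CHH gains stood at a control median of 1.41% and a cKO median of 6.07%, and postsynaptic ones at 1.34% and 6.44%. Among CG gains the medians were 46.8% and 76.1% in presynaptic and 41.9% and 69.3% in postsynaptic members. CG regions lower in cKO went from a median of 71.7% in control to 37.3% in presynaptic members and from 74.1% to 38.8% in postsynaptic members. In all protein-coding genes the medians of CHH gains were 1.71% in control and 6.93% in cKO, and those of CG losses 75.2% and 42.5%.

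**Figure D3:**
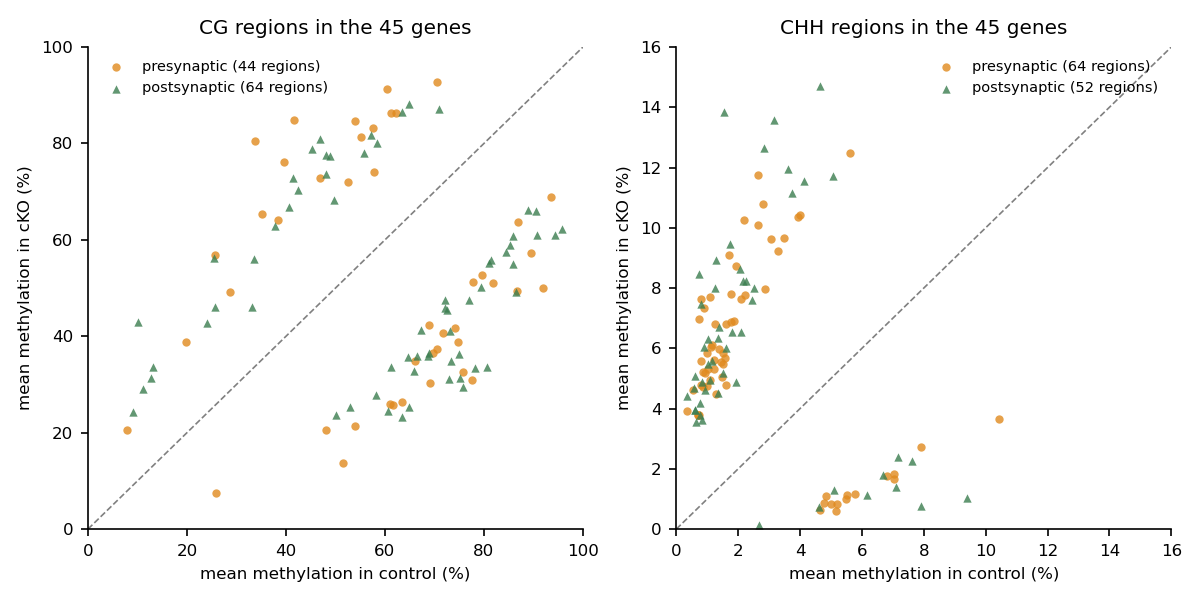
Mean methylation in control (horizontal axis) against cKO (vertical axis) for each CG region (left) and CHH region (right) of the 45 genes, with a dashed line of equal levels. The CHH gains start from 0.334% to 5.62% in control and reach 3.56% to 14.7% in cKO, and the space along the line is empty because the table lists called regions only.

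Regions within 1 kb of an annotated start were few. RefSeq starts were at hand for 36 members, and 4 of their 176 regions (2.27%) lay that close, beside 4.28% of the regions in all protein-coding genes with a listed start. Gene length was not matched here, and the 45 members have a median of 107 kb against 17.2 kb for protein-coding genes. A region at a start can bear on the promoter, so the 250 bases before each of these 4 starts are printed below from the RefSeq table on GRCm38.p6 (the assembly of mm10), 5′ to 3′ on the gene's strand, with each CpG in capitals. In Dlg1, which encodes the scaffold SAP97 of synapses and epithelial junctions, a CG region of 17 CG cytosines (both strands) at chr16:31663961-31664074 went from 10.02% in control to 43.02% in cKO. It lay 26 to 139 bp downstream of a start on the plus strand, the nearest of the 4. The printed stretch before that start holds 20 CpGs, counted as sites, and 17.9% of the 32851 promoter stretches in the table hold as many or more, against a median of 6.
Dlg1, chr16:31663685-31663934, plus strand: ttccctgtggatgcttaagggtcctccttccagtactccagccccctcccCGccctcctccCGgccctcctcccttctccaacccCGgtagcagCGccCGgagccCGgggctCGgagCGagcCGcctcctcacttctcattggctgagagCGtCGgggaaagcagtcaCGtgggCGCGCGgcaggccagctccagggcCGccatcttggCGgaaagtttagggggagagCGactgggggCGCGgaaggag
Dlg1, first 24 bases of the region, chr16:31663961-31663984, plus strand, with 3 CpGs: ggaggCGagCGgaCGagcaggggc
In Unc13a, the gene of the priming factor Munc13-1, a region of 14 CG cytosines at chr8:71670741-71670816 went the other way, from 25.8% in control to 7.42% in cKO. It lay 941 to 1016 bp downstream of the start, whose stretch holds 18 CpGs.
Unc13a, chr8:71671758-71672007, minus strand: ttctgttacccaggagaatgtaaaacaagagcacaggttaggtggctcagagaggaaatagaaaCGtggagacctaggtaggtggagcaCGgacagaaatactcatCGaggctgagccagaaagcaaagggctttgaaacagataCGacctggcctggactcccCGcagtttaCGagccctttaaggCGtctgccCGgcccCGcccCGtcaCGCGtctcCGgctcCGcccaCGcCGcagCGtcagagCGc
In Dlgap1, a linker between Dlg and Shank proteins, a region of 12 CG cytosines at chr17:70561279-70561424 went from 40.6% to 66.7% upstream of a start inside the gene, whose stretch holds 7 CpGs. The region ended 323 bp before that start.
Dlgap1, chr17:70561497-70561746, plus strand: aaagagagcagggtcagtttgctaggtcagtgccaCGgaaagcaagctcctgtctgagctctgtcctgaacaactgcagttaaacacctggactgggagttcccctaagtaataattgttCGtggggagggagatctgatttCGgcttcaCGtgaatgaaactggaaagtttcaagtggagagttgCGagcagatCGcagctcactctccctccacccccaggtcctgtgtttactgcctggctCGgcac
In Unc13c, a CHH region at chr9:73970008-73970122 went from 5.79% to 1.18%. It ended 971 bp before a start inside the gene, whose stretch holds 6 CpGs.
Unc13c, chr9:73969038-73969287, minus strand: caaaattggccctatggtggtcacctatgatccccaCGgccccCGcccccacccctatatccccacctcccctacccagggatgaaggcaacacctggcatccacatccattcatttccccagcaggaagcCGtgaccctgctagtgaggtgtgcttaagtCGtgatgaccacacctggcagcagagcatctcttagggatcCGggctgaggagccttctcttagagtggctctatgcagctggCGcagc

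Vesicle proteins were split by gene. Synapsins tether vesicles to each other in the reserve pool. In Syn3 the authors' deposited table lists 5 CHH regions, all higher in cKO, with 1.08% to 5.62% in control and 4.94% to 12.5% in cKO. The strongest of them by the authors' area statistic, a score summed over cytosines, went from 2.18% to 10.2% over 65 cytosines. The 4 CG regions of Syn3 were 2 lower and 2 higher. One of the higher ones (55.2% to 81.4%) also lies in Timp3, a protease inhibitor gene nested in Syn3, and was the single region of the 226 shared with another protein-coding gene. Syn2 held 1 CG region, at 25.7% in control and 56.8% in cKO. The SV2 proteins are vesicle glycoproteins. Sv2b held 1 CHH gain (0.709% to 3.797%), whereas Sv2c, best known from the basal ganglia, held 7 CG regions and 1 CHH region, all lower in cKO. The longest region in any member was the CG loss of Sv2c at chromosome 13, 95995076 to 95996399, with 1324 bp and 54 CG cytosines. Its level was 74.1% in control and 41.7% in cKO, and the CHH loss (5.16% to 0.594%) lies inside it.

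SNARE and complexin genes held few regions, and all 5 were gains. Snap25 and Stx1a encode the SNAREs of the plasma membrane. Snap25 held 1 CG region (46.8% to 72.7%), as did Stx1a (39.7% to 76.1%). Complexins clamp and promote SNARE fusion, and Cplx2 held 3 CHH regions, at 0.8797% to 2.63% in control and 6.102% to 11.8% in cKO. Vamp1, Vamp2 and Cplx1 held none.

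The calcium sensors of fast release went in opposite directions. Syt1, the main fast sensor of forebrain synapses, held 3 CG regions, all higher in cKO (35.2% to 65.3%, 53.95% to 84.7% and 38.4% to 64.1%). Syt2, the fast sensor of the hindbrain and of fast-spiking interneurons, held 10 CG and 3 CHH regions, all lower in cKO. Its CG levels were 51.4% to 93.6% in control and 13.7% to 68.9% in cKO, and its CHH levels 4.65% to 5.51% in control and 0.633% to 1.14% in cKO. The CG regions of Syt2 ran from 134647699 to 134728061 on chromosome 1, over most of a gene of 107 kb. Syt3 and Syt7, which bind calcium with higher affinity, held 1 CHH gain each (0.804% to 4.79% and 0.858% to 4.72%). Rph3a, which codes for the Rab3 effector rabphilin, held none.

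Active zone genes held 49 of the 64 presynaptic CHH regions, with 39 of the 50 gains and 10 of the 14 losses. Their share of gains (79.6%) lay near that of all presynaptic members (78.1%). Erc2 encodes the ELKS protein CAST, which binds RIM and Bassoon, and had more CHH gains than any other member. Its 15 CHH regions had levels of 0.692% to 3.06% in control and 3.77% to 10.8% in cKO. They lay between 27733153 and 28337090 on chromosome 14, in a gene of 856 kb. Its 4 CG regions were also higher, at 57.5% to 62.2% in control and 83.1% to 91.4% in cKO, so that all 19 regions of Erc2 were gains. The RIM genes followed the same pattern in CHH, with 5 gains in Rims1, 8 in Rims2 and 3 in Rims3 and no loss. Levels in Rims2 were 0.555% to 3.49% in control and 4.63% to 9.65% in cKO. Erc1 held 3 CHH gains and Pclo, the gene of Piccolo, 1 (1.501% to 5.84%). Bsn, the gene of Bassoon, held 2 CG gains (52.5% to 72.1% and 57.7% to 74.05%).

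The Munc13 genes differed from each other. Munc13 proteins open syntaxin so that vesicles become ready to fuse. Unc13b held 4 CHH regions, all higher in cKO (1.12% to 3.997% in control and 6.03% to 10.4% in cKO). Unc13a held 2 CG gains away from its start (28.8% to 49.2% and 19.7% to 38.7%) beside the loss near it. Unc13c, whose product Munc13-3 is best known from the cerebellum, held 10 CHH regions, all lower in cKO (4.78% to 10.4% in control and 0.828% to 3.65% in cKO). It also held 4 CG losses, 1 CHG loss over 11 cytosines (2.56% to 0.118%) and 1 CG gain over 4 CG cytosines (41.7% to 84.8%). Its 15 losses lay between 40.6 and 523 kb from the lower-coordinate end of a gene of 529 kb.

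Among postsynaptic members the Dlgap genes were the most uniform. Of their 15 CG regions 14 were higher in cKO, and of their 12 CHH regions all 12 were. Dlgap2 held 4 CG gains (33.6% to 55.8% in control and 56.1% to 78.1% in cKO) and 7 CHH gains (0.6002% to 2.16% in control and 3.56% to 8.64% in cKO). Dlgap1 held 5 CG gains, 1 CG loss (64.6% to 35.8%) and 4 CHH gains. Dlgap4 held 3 CG gains and 1 CHH gain, and Dlgap3 held 2 CG gains.

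Several gains lay in stretches dense in CG cytosines that were weakly methylated in control. In Dlgap3 a region of 112 CG cytosines (chromosome 4, 127236169 to 127236620) went from 9.04% in control to 24.4% in cKO. It had the largest area statistic of any member's CG region in the authors' deposited table. Shank3, a scaffold that links the Dlgap layer to Homer and actin, went from 11.1% to 29.1% over 82 CG cytosines. Shank1 went from 12.8% to 31.2% over 78, Rims1 from 7.86% to 20.5% over 75 and Dlgap4 from 13.1% to 33.5% over 20. In all, 12 of the 45 CG gains began below 30% in control (26.7%), against 16.1% of the 2396 CG gains in all protein-coding genes. By side they were 4 of 19 presynaptic and 8 of 26 postsynaptic gains. These 12 regions had a median of 15.9 CG cytosines per 100 bp (both strands) and the other gains 10.3, and the CG losses of members had 6.28. In all protein-coding genes the values were 17.3, 10.5 and 7.57, so this order was shared with other genes.

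**Figure D4:**
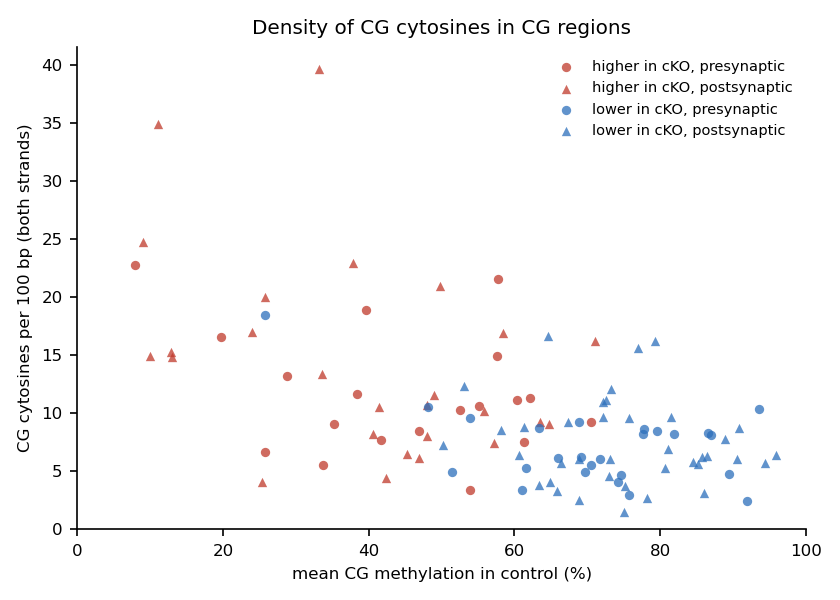
Number of CG cytosines per 100 bp on both strands (vertical axis) against the mean CG methylation in control (horizontal axis) for the 108 CG regions of the 45 genes, by direction and side. Gains span control levels from 7.86% to 71.0%, and 1 of the 63 losses begins below 30%.

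The 3 Shank genes differed. Shank1 held 3 CG gains and no other region (12.8% to 25.7% in control and 31.2% to 45.98% in cKO). Shank3 held 3 CG gains and 1 CG loss (79.3% to 50.2%). Shank2 held 7 CG losses, 5 CHH losses, 1 CHG loss and 2 CHH gains. Its losses, between 144010293 and 144168591 on chromosome 7, all lay at lower coordinates than its gains, between 144189123 and 144192182, with 20.5 kb between them. The strongest CHH loss of a member was in Shank2, from 7.90% to 0.752% over 80 cytosines. The CHG region went from 13.9% to 4.73% over 31 cytosines.

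Magi1, a membrane scaffold of synapses and of epithelial and endothelial junctions, held the most regions of all members, 31, and was split by position. Its 5 CHH gains lay between 93743318 and 93858790 on chromosome 6, and all 21 CG losses and 5 CHH losses between 93981598 and 94274513. The gap of 123 kb between them holds 2 annotated starts on the minus strand, at 93912963 and 93913690. The gains lie downstream of these starts and the losses upstream. Both starts lie inside the gene body (93675453 to 94283929), as do all the losses. No start was listed at its higher-coordinate end. The longest CHH gain of a member was 1 of the 5 in Magi1, with 187 cytosines over 514 bp, at 3.72% in control and 11.2% in cKO. The 5 CHH gains had levels of 1.34% to 4.66% in control and 6.35% to 14.7% in cKO. In the other part CHH levels were 4.603% to 9.39% in control and 0.735% to 1.78% in cKO, and CG levels 61.3% to 95.8% in control and 23.2% to 66.1% in cKO. Magi3 held no region.

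**Figure D5:**
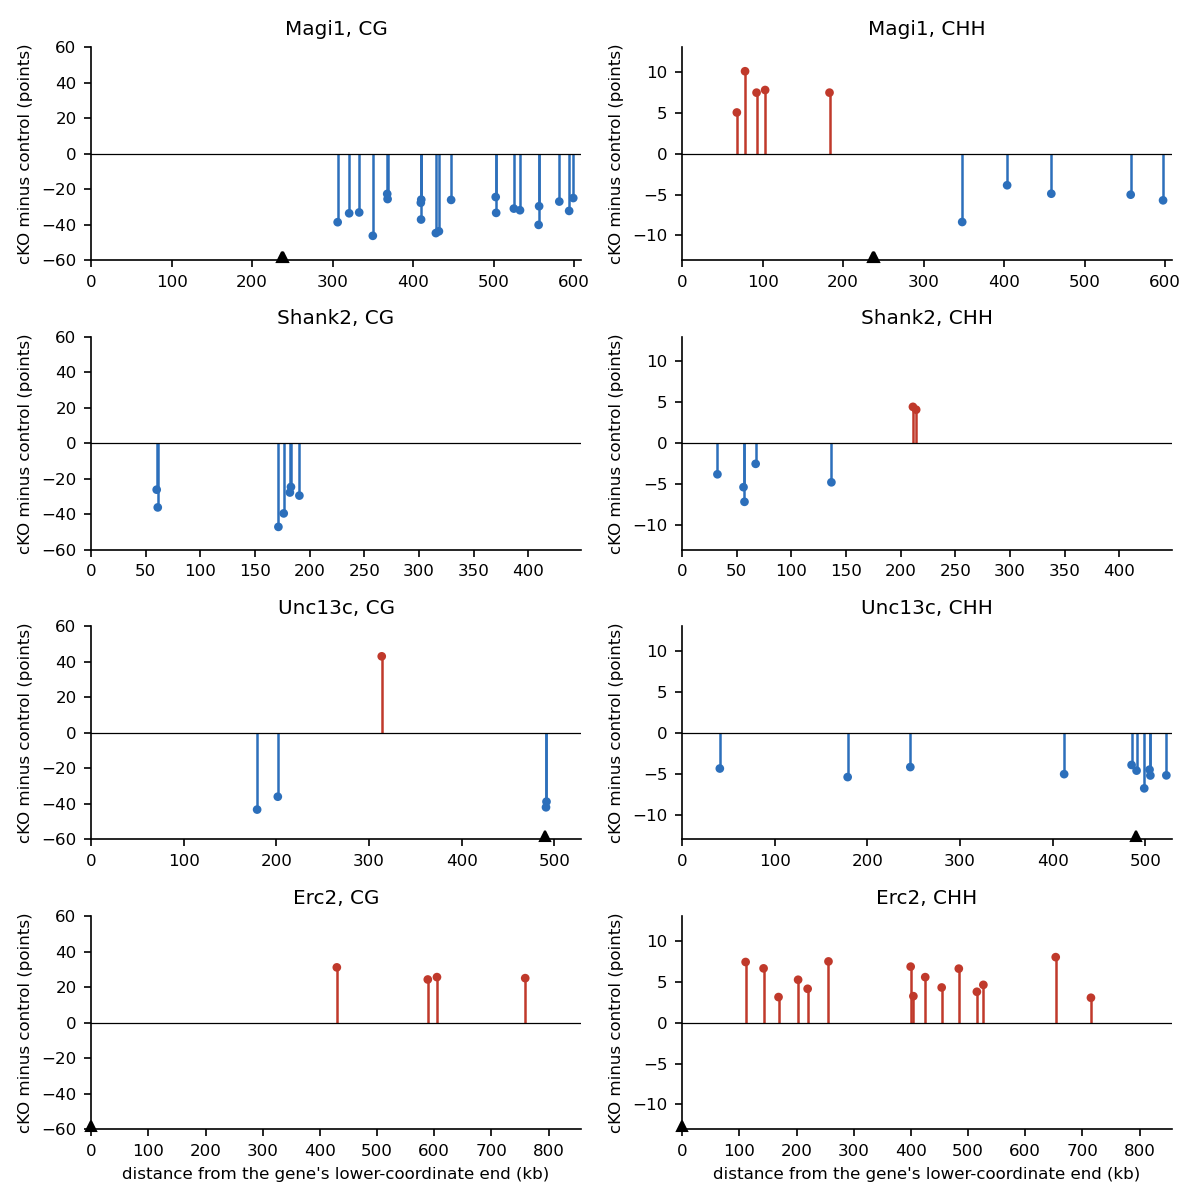
Difference in methylation (cKO minus control, in percentage points) of each CG region (left) and CHH region (right) along Magi1, Shank2, Unc13c and Erc2, against the distance in kb from the gene's end with the lower coordinate. Black triangles mark annotated starts, none of which are shown for Shank2. Gains and losses occupy separate stretches in Magi1 and Shank2, all 19 regions of Erc2 are gains, and 15 of 16 in Unc13c are losses.

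Dlg2 and Homer2 went in opposite directions in CG and CHH. Dlg2, the gene of PSD-93 and the longest member at 1973 kb, held 3 CG regions, all lower in cKO (58.1% to 73.02% in control and 27.8% to 35.9% in cKO). Its 6 CHH regions were all higher (0.576% to 1.78% in control and 4.51% to 8.46% in cKO). Homer proteins bind Shank and metabotropic glutamate receptors, and Homer2 held 1 CG loss (66.4% to 35.9%) and 2 CHH gains (3.61% to 11.97% and 2.103% to 6.55%). Homer3 held 1 CG loss (72.2% to 45.9%). Besides the region at its start, Dlg1 held 1 CG gain (64.8% to 88.3%) and 1 CHH gain (5.06% to 11.7%). Anks1b, which encodes the postsynaptic protein AIDA-1, held 10 CHH regions, all higher in cKO (0.804% to 3.15% in control and 4.87% to 13.6% in cKO), 3 CG gains and 2 CG losses. Sorbs2, an adaptor to the actin cytoskeleton, held 4 CHH gains, and 1 of them had the largest CHH difference of a member, from 1.53% to 13.8% over 74 cytosines. Its 2 CG regions went opposite ways (45.3% to 78.8% and 50.1% to 23.7%).

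No region was listed in 10 members, namely Sv2a, Vamp1, Vamp2, Cplx1, Rph3a, Dlg4, Homer1, Camk2a, Camk2b and Magi3. They include PSD-95 (Dlg4) and the CaMKII subunits encoded by Camk2a and Camk2b, which are among the most abundant proteins of the postsynaptic density. Of the 10, 8 are shorter than 100 kb, and the longest is Magi3 with 207 kb. The nearest region lay 1.01 kb from Magi3, a CG loss from 29.4% to 5.84%, and 63.5 kb from Cplx1. Absence from the table does not show that levels were equal, as its depth and its thresholds are not known.

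Losses inside the members gathered in few genes. Sv2c, Syt2, Unc13c, Shank2 and Magi1, singled out after their values were seen, held all 24 CHH losses and 49 of the 63 CG losses, beside 7 CHH gains and 1 CG gain. The other 40 members held 14 CG losses, 44 CG gains and 85 CHH gains. Of the 18 members with at least 2 CHH regions, 14 held gains alone, 2 losses alone (Syt2 and Unc13c) and 2 both (Magi1 and Shank2). In protein-coding genes with as many (3331), the shares were 40.7% gains alone, 43.8% losses alone and 15.5% both, where the members gave 77.8%, 11.1% and 11.1%. CG directions were mixed in 8 of 21 members with at least 2 CG regions (38.1%) beside 13.4% of 2720 such protein-coding genes. Gene length was not matched in these comparisons. Over all contexts, 43.5% of members of at least 100 kb with a region held both directions, beside 37.5% of such protein-coding genes. A CG and a CHH region lay within 1 kb of each other in 6 pairs in Dlgap4, Magi1, Sv2c and Unc13c. Of the 3 pairs in Unc13c, 2 share a CHH region. All 6 pairs had the same direction, 5 of them lower in cKO, as did 99.5% of the 3554 such pairs in all protein-coding genes, where 97.4% were lower in both.

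Mitochondrial DNA also held losses, in each context. Its 10 CG regions went from a mean of 5.36% in control to 0.673% in cKO, and its 3 CHG regions from 9.55% to 0.321%. All 4 CHH regions on mitochondrial DNA, with 3967 cytosines, were lower in cKO, at a mean of 6.52% in control and 0.510% in cKO. Incomplete conversion by bisulfite leaves cytosines that read as methylated, and its part in the CHH losses was not tested. The members' CHH losses fell by 2.52 to 8.35 points, and the median size of the mitochondrial ones was 5.87 points. Of the members' CHH regions that differed by more than that median, a filter chosen after the data were seen, 33 of 36 were higher in cKO (91.7%), beside 55.8% in all protein-coding genes. In Nsd1 itself the 5 CHH regions were higher in cKO, from 0.405% to 0.834% in control to 4.77% to 7.90%, and the only CG region went from 50.4% to 29.8%. Its 2 CHG regions were higher in cKO, at 0.380% to 0.475% in control and 9.43% to 10.7% in cKO. These levels do not show how much of the gene was removed.

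Regions in marker genes of other cortical cells were mostly losses. Over the 52 markers of interneurons, glia and vessel cells, 97.2% of CG regions and 96.2% of CHH regions were lower in cKO, beside 85.2% and 58.8% in all protein-coding genes. A CG loss was found in 26 of the 52 genes (50%) and a CHH loss in 25 (48.1%), beside the 18.6% and 15.2% of protein-coding genes given above. Gene length was not matched here, and among protein-coding genes of at least 100 kb the shares were 54.0% and 42.4%. Markers of interneurons held 45 CG losses in 4 of 12 genes (33.3%) and 78 CHH losses in 6 (50%), with no gain. For CG, astrocyte markers (10 genes) held 13 losses and 0 gains, oligodendrocyte markers 15 and 2, microglia markers 9 and 0, and endothelial and mural markers 23 and 1. For CHH the losses and gains were 11 and 2, 5 and 1, 12 and 2, and 21 and 0. Markers of excitatory neurons (10 genes) held 5 CG losses, 9 CG gains and no CHH gain, and their 19 CHH losses lay in 2 genes. In a bulk tissue, a change in the share of a cell type cannot be told apart from a change of methylation within cells, and its part in the members' losses was not tested. The table gives no expression, so the tissue label was not checked against markers.

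Other genes of the same pathways also held more CHH gains than losses, on a list likewise chosen with earlier results known. Of 99 further genes of vesicle release and of the postsynaptic density, 98 were matched. Their CHH regions were 119 higher and 41 lower in cKO (74.4% higher, interval 66.9% to 80.9%), with gains in 37 genes (37.8%) and losses in 14 (14.3%), beside 15.0% and 15.2% of protein-coding genes. Their CG regions were 51 higher and 81 lower (38.6% higher, interval 30.3% to 47.5%), with gains in 29 genes (29.6%) and losses in 20 (20.4%), beside 7.26% and 18.6%. The shares with losses lay near those of all protein-coding genes, but gene length was not matched here. Among protein-coding genes of at least 100 kb, CHH gains were found in 55.6% and CHH losses in 42.4%. CG gains were found in 25.7% of those long genes and CG losses in 54.0%. By side of the further pathway genes, 77.4% of presynaptic and 71.1% of postsynaptic CHH regions were higher. For CG the shares were 48.1% (interval 34.3% to 62.2%) and 32.1% (interval 21.9% to 43.6%), and the difference was not tested. On the release side, Cadps, a factor for priming of dense-core vesicles, held 9 CHH gains and no CHH loss, at 0.545% to 3.56% in control and 4.62% to 10.8% in cKO. Rimbp2, which binds RIM and calcium channels, held 4 CG gains (22.4% to 36.8% in control, 52.9% to 72.2% in cKO), and the vesicle protein gene Synpr held 9 CHH losses. Dnm3, a dynamin, had 12 CG losses, no CG gain, 12 CHH gains and 1 CHH loss, a contrast between contexts like that in Dlg2. Rab3c, a vesicle GTPase, held 6 CG losses, 2 CHH losses and 5 CHH gains. On the postsynaptic side, Tanc1 held 26 CG and 15 CHH losses and no gain, and Camk2d, a CaMKII subunit found in many tissues, 7 CG and 4 CHH losses. Dlg5 held 9 CHH gains and Lin7a, a partner of Dlg proteins, 7. Kalrn, a regulator of dendritic spines, held 5 CG gains (9.35% to 53.5% in control, 27.2% to 78.0% in cKO) and Magi2 held 4 CG gains and 3 CG losses.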

How the data were processed

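DNA methylation was measured in 4 libraries of somatosensory cortex, 2 per group. CASAVA, Bowtie2 and the build mm10 appear in the submitters' processing notes. No region caller, threshold, use of replicates or conversion rate is given in the sources used here. The authors deposited each group's mean methylation as a fraction, multiplied here by 100. Their deposited difference (other unit) equalled cKO minus control in every region within 1e-06 points. Their deposited area statistic is a score, used to rank and filter. Genes came from RefSeq on GRCm38.p6 (21792 protein-coding, without entries in the first 3 Mb of chromosomes, which are gaps). Starts and sequences came from its promoter table (250 bases before to 50 after a start), which held 36 of 45 members. No starts were used here for Camk2a, Dlgap2, Rims2, Shank1, Shank2, Snap25, Syn3, Syt7 or Vamp2.

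Regions were assigned, counted and compared with those in all protein-coding genes in Python 3.11.15 with pandas 2.3.3 and SciPy 1.17.1. The overlap was tested on simulated data, and 1000 of 1000 planted pairs were found. Named genes are the strongest 4 members by area statistic per side, context and direction, the 5 members with most regions per side, CHG regions, regions within 1 kb of a start, and for the further pathway genes the 2 with most regions per side, context and direction. Other members are described by role. The members, lists and rules were chosen with earlier results of these data known. No test was made, because the table holds no values per library. Alternatives changed the overlap, the thresholds and the members.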

Additional observations from a re-analysis of the deposited data

How the results depend on the processing

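Of 56 alternative values, 48 lay within the counting interval of the main value or, for numbers of genes, within 1.5 times of it. Requiring regions to lie wholly inside the gene body changed no value. Leaving out regions shared with another protein-coding gene changed only the presynaptic CG share, from 43.2% to 41.9%. These settings could hardly move a result, so their values add little to the 48. CHH shares of gains ranged over the alternatives from 71.4% to 94.4% in presynaptic and from 76.2% to 88.9% in postsynaptic members. When regions with a difference below the median of their context were left out, the CG shares were 22.7% (presynaptic) and 21.7% (postsynaptic), and 21 members held a region. The postsynaptic CG share was 59.0% without 6 members also known outside the postsynaptic scaffold (Dlg1, Camk2a, Camk2b, Magi1, Magi3 and Sorbs2) and 60.5% without Magi1, the member with the most regions. Above the mitochondrial median, a filter chosen with the data in view, the CHH share was 94.4% in presynaptic members and 82.3% in the further pathway genes, and 13 of 15 members with a CHH region were mostly higher, against 20 of 25 without the filter. In each case fewer regions or members entered. No paired analysis was possible because the table holds group means only, and for the same reason no replicate could be left out. The span of curated transcripts was not run, as the annotation used gives no coordinates per transcript. Depth is unknown, so regions missing from the table say nothing of equal levels.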
